A study of Mus musculus with 20 samples.

Results

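The 10 genes described here mark T cells and cytotoxic lymphocytes: Cd3d, Cd3e, Cd3g, Cd4, Cd8a, Cd8b1, Gzma, Gzmb, Nkg7 and Prf1. They were taken by symbol from a liver gene expression table of 38924 genes in 20 mice, and all 10 were found in it. Livers came from male C57BL/6J mice (wild type, WT) and from male mice labelled TSP-1 null. The latter were a purchased whole-body knockout stock of Thbs1, the gene of thrombospondin-1, and the authors describe their background as C57BL/6J. Mice of both genotypes were fed for 12 weeks with control chow or with CDAHFD. CDAHFD is a diet rich in fat that lacks choline, is limited in methionine and supplies defined L-amino acids. It was used as a model of non-alcoholic steatohepatitis. The groups, of 5 mice each, were WT on control diet (NDWT), TSP-1 null on control diet (NDKO), WT on CDAHFD (HFWT) and TSP-1 null on CDAHFD (HFKO). The mice were bought at 5 weeks of age and acclimated for 1 week before the diets began. Poly(A) RNA of 1 piece of liver per mouse was sequenced, so every value is of whole tissue. One source places that piece in the right medial lobe and another in the right lateral lobe.

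The T cell receptor recognizes peptides held by MHC molecules and cannot signal alone. It is assembled with invariant chains, among them those made by Cd3d, Cd3e and Cd3g, which carry the signal into the cell. The co-receptor CD4 binds MHC class II and marks helper and regulatory T cells, and it is also found on some myeloid cells. CD8, a pair of chains made by Cd8a and Cd8b1, binds MHC class I and marks cytotoxic T cells. Cytotoxic T cells and natural killer (NK) cells kill from granules that hold perforin (Prf1), which opens the target membrane, and granzymes (Gzma and Gzmb), proteases that enter through it. Nkg7 is a membrane protein of those granules. In the liver these cells patrol the sinusoids, and resident NK and CD8 T cells are a known part of its lymphocytes.

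The 3 Cd3 genes lie side by side within 40.0 kb of chromosome 9 (GRCm38): Cd3g at 44969572 to 44980431 on the minus strand, Cd3d at 44981793 to 44987052 on the plus strand and Cd3e at 44998743 to 45009590 on the minus strand. Cd8b1 (71322836 to 71337477) and Cd8a (71373427 to 71379171) are also neighbours, both on the plus strand of chromosome 6, with 35949 bases between them. Cd4 is on the minus strand of the same chromosome, at 124864692 to 124888221. The granule genes are scattered: Gzma on chromosome 13 (113093825 to 113100979, minus), Gzmb on chromosome 14 (56258856 to 56262260, minus), Nkg7 on chromosome 7 (43437073 to 43438246, plus) and Prf1 on chromosome 10 (61297836 to 61304263, plus). All 10 are protein coding, and no other gene of the table overlaps any of them, so no reads are shared between a member and an overlapping gene listed there.

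RefSeq gives promoter windows on GRCm38.p6 for 8 of the 10 genes, and none was used here for Cd4 and Cd8b1. The 250 bases upstream of the start are printed for 5 genes. Cd3g and Cd3d are shown because they are divergent neighbours whose starts lie 1355 bases apart, Cd8a because it was among the genes that differed most between diets, and Gzma and Gzmb because they are granzymes that differed in whether they passed the test. Capitals mark matches, on either strand, to 6 short motifs: a RUNX site (TGTGGT), an ETS core (GGAAG), a T-box core (TCACAC), an AP-1 site (TGANTCA), an E-box (CAGNTG) and a TATA box (TATAAA). The windows are chr9:44980432-44980681 (minus), chr9:44981536-44981785 (plus), chr6:71373177-71373426 (plus), chr13:113100982-113101231 (minus) and chr14:56262335-56262584 (minus), each read toward its gene.
Cd3g: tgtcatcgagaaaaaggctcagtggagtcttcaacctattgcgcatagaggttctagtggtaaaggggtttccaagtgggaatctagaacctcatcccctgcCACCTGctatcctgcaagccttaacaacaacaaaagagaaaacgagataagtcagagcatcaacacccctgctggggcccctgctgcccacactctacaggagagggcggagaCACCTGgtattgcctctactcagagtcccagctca
Cd3d: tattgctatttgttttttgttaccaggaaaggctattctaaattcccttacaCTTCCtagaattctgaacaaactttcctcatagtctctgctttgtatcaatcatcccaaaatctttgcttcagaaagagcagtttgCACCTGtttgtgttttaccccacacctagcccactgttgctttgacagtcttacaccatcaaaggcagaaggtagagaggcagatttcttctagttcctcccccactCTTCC
Cd8a: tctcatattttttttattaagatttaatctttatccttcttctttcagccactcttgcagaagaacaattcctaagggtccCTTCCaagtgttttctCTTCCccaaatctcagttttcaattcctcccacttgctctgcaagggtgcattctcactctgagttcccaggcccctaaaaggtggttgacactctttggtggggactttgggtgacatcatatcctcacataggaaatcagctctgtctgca
Gzma: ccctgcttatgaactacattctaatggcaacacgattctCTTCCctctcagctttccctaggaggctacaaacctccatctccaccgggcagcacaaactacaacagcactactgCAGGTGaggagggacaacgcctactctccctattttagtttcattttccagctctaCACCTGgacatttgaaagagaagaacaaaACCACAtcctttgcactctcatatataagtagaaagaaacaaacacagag
Gzmb: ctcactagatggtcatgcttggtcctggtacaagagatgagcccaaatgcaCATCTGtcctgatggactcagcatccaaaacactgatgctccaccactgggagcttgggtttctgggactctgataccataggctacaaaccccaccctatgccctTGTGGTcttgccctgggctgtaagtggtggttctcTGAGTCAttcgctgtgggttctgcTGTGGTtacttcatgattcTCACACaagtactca
An ETS core was found in 6 of the 8 windows of these genes and in 64.1% of all 32851 promoter windows. An E-box was in 6 of 8, against 44.8% of all windows. The RUNX site was in 4 of 8 (Gzma, Gzmb, Nkg7 and Prf1, the granule genes) and in 14% of all windows. T-box cores were in the windows of Gzmb and Nkg7 (12.3% of all windows), an AP-1 site in that of Gzmb (6.75%), and the letters TATAAA in none (12.4%). Other forms of a TATA box were not searched. No match overlapped another in the 8 windows. A match is a description of letters in this window only.

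Libraries held 15641545 to 23276322 fragments assigned to genes, so that 3 fragments on a gene of 1 kb correspond to 0.129 to 0.192 FPKM (fragments scaled to gene length in kilobases and to library total). The 10 genes were among the low ones of the liver: by mean FPKM over all libraries they lay above 6.0% (Prf1) to 30.4% (Nkg7) of the 14524 genes tested. All 10 passed the filter on low values, FPKM above 0.5 in at least 5 libraries. Cd8a and Cd8b1 exceeded 0.5 FPKM in no control diet library, Cd3d and Gzma in 1 each, Cd3e in 2, Gzmb in 3 and Prf1 in 4, so these 7 passed only with their CDAHFD libraries. Without that filter the same number of these genes was called in every comparison. A differentially expressed gene (DEG) had a Benjamini-Hochberg FDR under 0.05 over all tested genes, by limma on log2(FPKM + 0.1), and an absolute log2 fold change (log2FC) above 0.58. Thbs1 itself went against the labels on control diet, with 0.197 ± 0.103 FPKM in NDWT and 1.30 ± 0.390 in NDKO (SD, n = 5, log2FC 2.28, FDR 1.02e-05), and on CDAHFD it was 4.62 ± 1.22 in HFWT and 3.44 ± 0.547 in HFKO (log2FC -0.39, FDR 0.408). A value summed over the gene does not show which exons were read, so it does not check the deletion. Every genotype direction below is therefore between libraries labelled WT and libraries labelled TSP-1 null. Nothing in the labels separates the libraries by batch or day, and depth did not separate the groups, with group medians from 17800442 (NDWT) to 20216988 (NDKO) fragments.

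The first comparison asked how these genes differed between CDAHFD and control diet in WT mice. The CD3 chains, both CD8 chains, Gzma and Nkg7 were 3.77- to 5.88-fold higher on CDAHFD, whereas Cd4, Gzmb and Prf1 did not pass the test. All folds of these genes, here and below, are of FPKM + 0.1 and not of FPKM itself. At such low control levels they depend on the added value and understate the change in FPKM. The number of DEGs was 7 of 10, all higher, while 44.1% of all 14524 genes tested were called higher in this comparison. The median log2FC of the 10 genes was 2.02 and that of all tested genes 0.53. In whole tissue, more cells of a type and more RNA per cell cannot be told apart.

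Of the receptor chains, Cd3d was at 0.422, 0.317, 0.382, 0.044 and 0.303 FPKM in the 5 NDWT libraries and at 1.43, 1.52, 1.75, 1.48 and 0.787 FPKM in the 5 HFWT libraries. These groups did not overlap, and Cd3d rose 4.03-fold (log2FC 2.01 ± 0.38 SE, FDR 9.04e-05). It rested on 1 to 13 fragments per control library and 18 to 47 per CDAHFD library. Cd3g was at 0.683, 1.01, 0.420, 0.436 and 0.562 FPKM on control diet and at 2.08, 2.18, 4.10, 2.67 and 2.00 FPKM on CDAHFD. The ranges were again separate, and the rise was 3.77-fold (log2FC 1.91 ± 0.33, FDR 2.92e-05). Cd3e was at 0.329, 1.29, 0.156, 0.243 and 0.384 FPKM on control diet, where library 2 stood above the other 4, and at 2.10, 1.81, 2.65, 1.96 and 1.09 FPKM on CDAHFD. That 1 control library overlapped the CDAHFD range, and Cd3e rose 4.06-fold (log2FC 2.02 ± 0.41, FDR 0.000173).

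Of the co-receptors, both CD8 chains passed the test and Cd4 did not. Cd8a was at 0.096, 0.364, 0.359, 0.019 and 0.048 FPKM in NDWT and at 1.07, 1.42, 1.78, 1.49 and 0.850 FPKM in HFWT. Every CDAHFD library lay above every control library, and Cd8a rose 5.86-fold (log2FC 2.55 ± 0.45, FDR 4.24e-05). Its partner chain Cd8b1 went from 0.151, 0.169, 0.238, 0.205 and 0.106 FPKM to 1.42, 1.68, 1.88, 1.52 and 1.06 FPKM, also without overlap. The rise of Cd8b1 was 5.88-fold on the scale of the fit (log2FC 2.56 ± 0.36, FDR 3.65e-06), with mean FPKM of 0.174 in NDWT and 1.51 in HFWT. Cd4 was at 0.426, 0.505, 0.376, 0.275 and 0.510 FPKM on control diet and at 0.581, 0.750, 0.820, 1.08 and 0.430 FPKM on CDAHFD. The CDAHFD library 5 lay inside the control range, and the log2FC of Cd4 was 0.65 (95% interval -0.07 to 1.38, FDR 0.0957), or 0.12 above the median of all tested genes.

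Among the granule genes, Gzma was at 0.294, 0.546, 0.256, 0.066 and 0.285 FPKM in NDWT and at 0.572, 1.03, 2.75, 2.17 and 1.78 FPKM in HFWT. The lowest CDAHFD library lay just above the highest control library, and Gzma rose 4.37-fold (log2FC 2.13 ± 0.42, FDR 0.000154). Nkg7 was at 0.343, 1.91, 0.576, 0.531 and 0.571 FPKM on control diet and at 2.92, 2.54, 5.06, 4.11 and 1.58 FPKM on CDAHFD. It rose 4.09-fold (log2FC 2.03 ± 0.39, FDR 0.000102), and the groups overlapped through control library 2. Gzmb was at 0.151, 0.592, 0.475, 0.288 and 0.106 FPKM on control diet and at 0.315, 0.412, 1.5, 1.17 and 0.326 FPKM on CDAHFD. The CDAHFD values fell into 2 high and 3 low libraries, the low ones inside the control range, and the log2FC was 0.90 (0.00 to 1.80, FDR 0.0653). Prf1 was at 0.648, 0.175, 0.574, 0.397 and 0.537 FPKM on control diet and at 0.787, 0.491, 0.792, 0.903 and 0.338 FPKM on CDAHFD, and its log2FC was 0.45 (-0.35 to 1.24, FDR 0.296).

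The groups did not overlap for 5 of the 10 genes (Cd3d, Cd3g, Cd8a, Cd8b1 and Gzma, all higher on CDAHFD), and for 50.5% of all tested genes in that direction. Gzmb passed the test without any 1 of NDWT library 2 (log2FC 1.12), NDWT library 3 (1.05), HFWT library 1 (1.10) and HFWT library 5 (1.09), and in the fit on recovered fragments (1.20), and Cd4 passed where only the 2 groups were fitted (0.65, FDR 0.0286). Under quantile normalization Gzma missed the test (log2FC 0.95, FDR 0.0713), and the estimates of Cd4 (-0.56), Gzmb (-0.45) and Prf1 (-0.80) turned negative. With median of ratios scaling the estimate of Prf1 was -0.01. The share of all tested genes called higher was 23.1% with that scaling and 17.3% with quantile normalization, the share called lower went from 4.62% to 14.8% and 17.6%, and the median of all genes from 0.53 to 0.01 and -0.09. The median of the 10 genes was 1.54 and 0.95 under these 2 scalings and 0.98 with a pseudocount of 1.

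**Figure D1:**
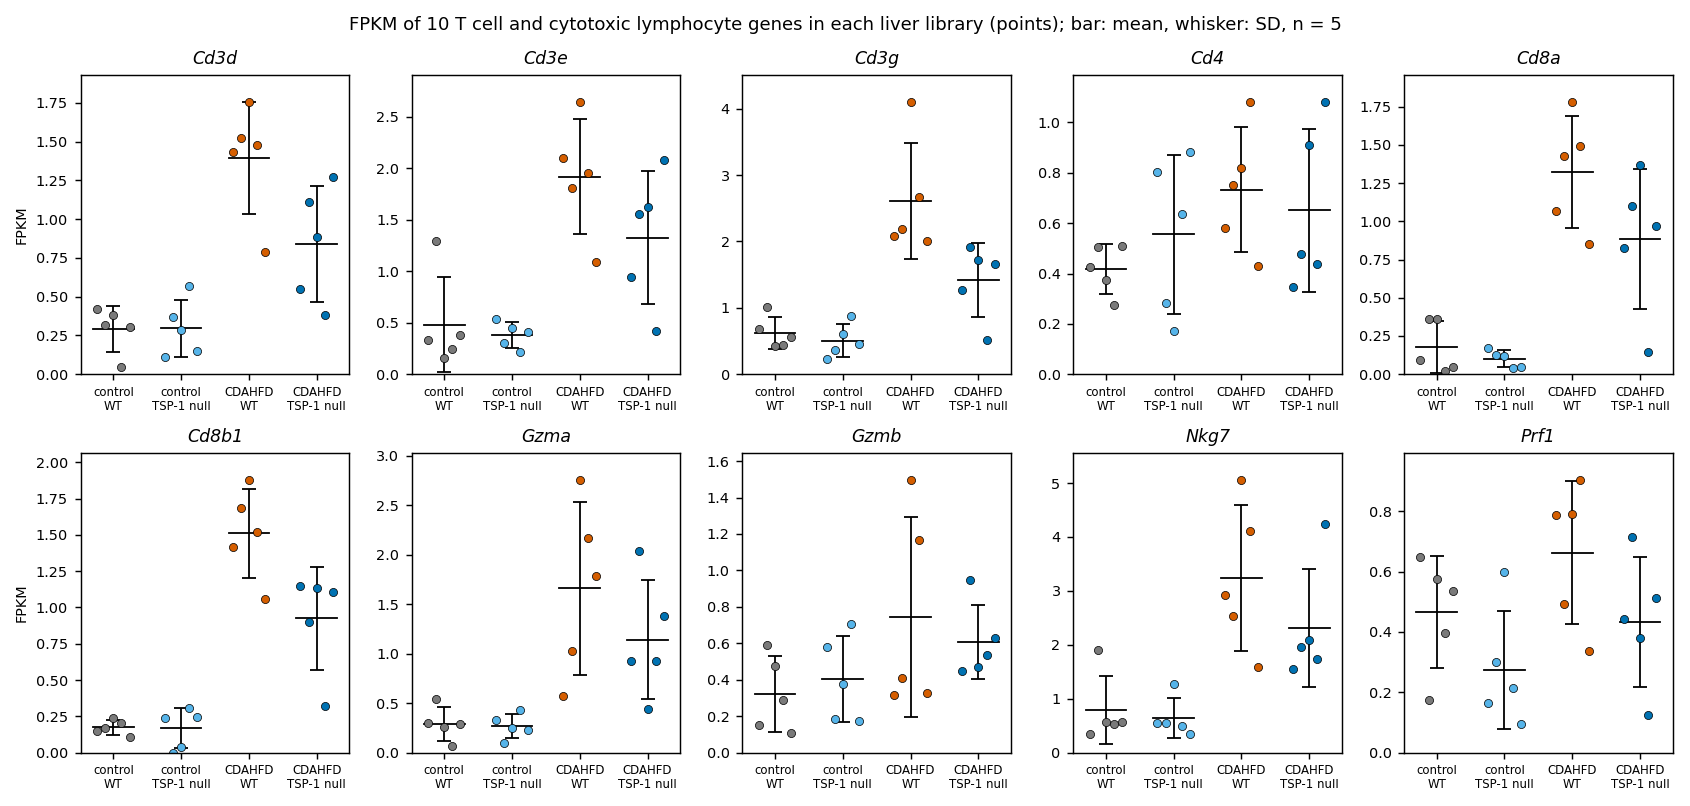
FPKM of each of the 10 genes (one panel each, linear axis from 0) in the 20 liver libraries, grouped by diet and genotype label. Points are libraries, the horizontal bar is the mean and the whisker the SD of 5 mice. All 10 means are higher on CDAHFD in both genotypes. The points of the 2 diets are apart for Cd3d, Cd3g, Cd8a, Cd8b1 and Gzma in WT mice and for Cd8b1, Gzma and Nkg7 in mice labelled TSP-1 null.

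The same diet comparison was made among the mice labelled TSP-1 null. The same 7 genes were DEGs, all higher on CDAHFD, with rises of 2.41-fold (Cd3d) to 4.34-fold (Cd8a) on the scale of the fit. Of all tested genes, 41.9% were called higher here. The median log2FC was 1.37 over the 10 genes and 0.50 over all tested genes. Both diet comparisons used different mice throughout.

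Cd8a was at 0.170, 0.127, 0.120, 0.040 and 0.047 FPKM in NDKO and at 0.825, 1.10, 1.37, 0.145 and 0.972 FPKM in HFKO. On CDAHFD 4 libraries were well above all control libraries, while library 4, at 0.145 FPKM, lay inside the control range. The rise was 4.34-fold (log2FC 2.12 ± 0.45, FDR 0.000309). Cd8b1 was at 0.239, 0, 0.038, 0.309 and 0.244 FPKM on control diet and at 1.15, 0.902, 1.14, 0.321 and 1.11 FPKM on CDAHFD. The groups just failed to overlap at library 4, and Cd8b1 rose 4.13-fold (log2FC 2.05 ± 0.36, FDR 5.3e-05). Cd4 gave 0.805, 0.284, 0.172, 0.636 and 0.883 FPKM on control diet and 0.348, 0.476, 0.910, 0.439 and 1.08 FPKM on CDAHFD. These ranges overlapped nearly throughout (log2FC 0.26, interval -0.47 to 0.98, FDR 0.52).

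The estimates of the receptor chains were smaller than those of the CD8 chains in these mice, and the log2 ratio of Cd8a to Cd3e differed by 0.68 between diets (exact permutation p 0.0397, adjusted p 0.144). Cd3d averaged 0.295 ± 0.183 FPKM in NDKO and 0.838 ± 0.372 FPKM in HFKO (log2FC 1.27, FDR 0.00549). Cd3e averaged 0.385 ± 0.125 and 1.33 ± 0.647 FPKM (log2FC 1.44, FDR 0.0036), and Cd3g 0.507 ± 0.248 and 1.42 ± 0.553 FPKM (log2FC 1.31, FDR 0.00135). In each of the 3 chains HFKO library 4 was the lowest of its group, at 0.382, 0.423 and 0.520 FPKM, and lay inside the control range.

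Gzma was at 0.331, 0.10, 0.244, 0.428 and 0.225 FPKM in NDKO and at 0.929, 2.04, 0.443, 0.922 and 1.38 FPKM in HFKO. The lowest CDAHFD value exceeded the highest control value by a small margin, and the rise was 3.23-fold (log2FC 1.69 ± 0.42, FDR 0.00136). Nkg7, at 0.552, 0.551, 1.28, 0.499 and 0.338 FPKM against 1.55, 1.97, 2.09, 1.73 and 4.24 FPKM, rose 3.29-fold with no overlap (log2FC 1.72 ± 0.39, FDR 0.00056). Gzmb averaged 0.405 ± 0.236 and 0.606 ± 0.203 FPKM (log2FC 0.58, interval -0.32 to 1.48, FDR 0.237). Prf1 averaged 0.275 ± 0.196 and 0.434 ± 0.215 FPKM (log2FC 0.53, interval -0.26 to 1.33, FDR 0.215), close to the median of all genes.

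The groups did not overlap for 3 of the 10 genes (Cd8b1, Gzma and Nkg7), against 52.7% of all tested genes in that direction. Without HFKO library 4 Prf1 also passed the test (log2FC 0.82, FDR 0.0498). Under quantile normalization only Cd8b1 remained a DEG with a higher level and Cd4 was called lower (log2FC -0.91, FDR 0.0288), so that the calls of the 3 CD3 chains, Cd8a, Gzma and Nkg7 depended on that choice. Cd3d also lost its call with a pseudocount of 1 (log2FC 0.49) and with median of ratios scaling (0.86, FDR 0.0616). The median of the 10 genes was 0.93 with median of ratios scaling, 0.37 with quantile normalization and 0.68 with a pseudocount of 1. The median of all tested genes was 0.00, -0.09 and 0.36 in that order, and 22.6%, 16.7% and 29.8% of them were called higher. The share called lower was 4.00% in the fit described first and 13.2%, 15.1% and 3.28% in these.

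**Figure D2:**
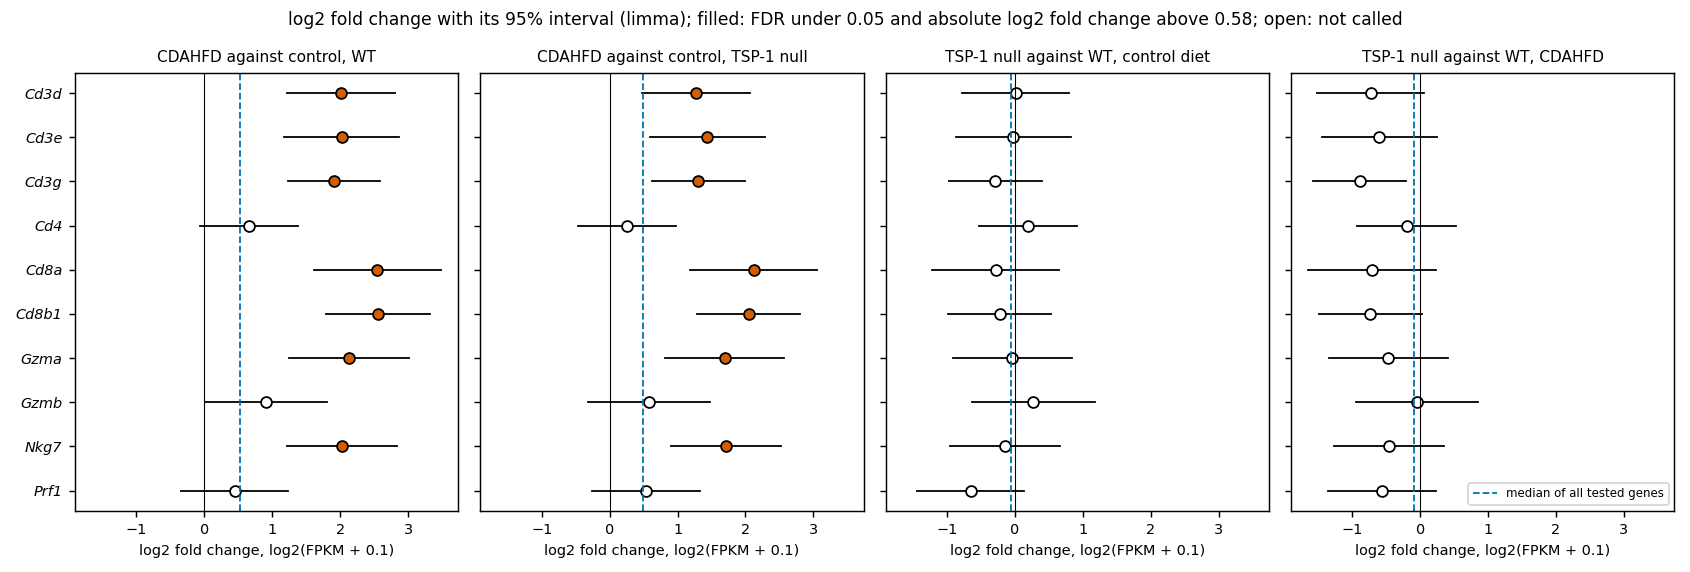
log2 fold changes of the 10 genes in the 2 diet and the 2 genotype comparisons, on log2(FPKM + 0.1), with 95% intervals from limma. Filled points are DEGs, open points are not, and the dashed line is the median of all tested genes. In both diet panels 7 points are filled, with medians of 2.02 and 1.37 over the 10 genes, and in both genotype panels none is.

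Libraries labelled TSP-1 null were then compared with WT on control diet. None of the 10 genes was a DEG by limma, while 4.77% of all tested genes were called in either direction, and none had an unadjusted p under 0.05. Estimates were higher for 3 genes and lower for 7, with a median log2FC of -0.09 (all tested genes -0.07). The largest difference was that of Prf1, at 0.466 ± 0.187 FPKM in NDWT and 0.275 ± 0.196 in NDKO (log2FC -0.65, interval -1.45 to 0.14, FDR 0.281). The smallest was that of Cd3d, at 0.294 ± 0.148 and 0.295 ± 0.183 FPKM (log2FC 0.01, interval -0.78 to 0.80). At 0 to 72 fragments per library the intervals reached from -1.45 to 1.17 over the 10 genes, and they took in a 2-fold difference for Cd8a, Gzmb and Prf1. Groups overlapped for all 10, and did not overlap for 9.03% of all tested genes.

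On CDAHFD the estimates of all 10 genes were lower in the libraries labelled TSP-1 null, but none was a DEG. Of all tested genes, 0.496% were called in either direction and 0.33% lower. The median log2FC was -0.59 over the 10 genes and -0.10 over all tested genes. Cd3g came nearest to the test. It was at 2.08, 2.18, 4.10, 2.67 and 2.00 FPKM in HFWT and at 1.27, 1.91, 1.72, 0.520 and 1.67 FPKM in HFKO. The 2 groups did not overlap, which held for 4.98% of all tested genes in either direction and for 4.13% in this one, and the log2FC was -0.90 (interval -1.58 to -0.21, unadjusted p 0.0126, FDR 0.167 by limma). Cd3g was the 1 gene of the 10 with an unadjusted p under 0.05.

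The other members of the receptor and co-receptor group had overlapping values. Cd3d averaged 1.39 ± 0.361 FPKM in HFWT and 0.838 ± 0.372 in HFKO (log2FC -0.73, FDR 0.326), Cd8a 1.32 ± 0.366 and 0.883 ± 0.458 (log2FC -0.71, FDR 0.426), and Cd8b1 1.51 ± 0.307 and 0.924 ± 0.352 (log2FC -0.73, FDR 0.308). Cd3e averaged 1.92 ± 0.562 and 1.33 ± 0.647 FPKM (log2FC -0.61, FDR 0.453). Cd4 averaged 0.733 ± 0.247 and 0.651 ± 0.323 FPKM (log2FC -0.20, FDR 0.79). Of the granule genes, Prf1 averaged 0.662 ± 0.237 and 0.434 ± 0.215 FPKM (log2FC -0.57, FDR 0.455), Gzma 1.66 ± 0.874 and 1.14 ± 0.600 (log2FC -0.47, FDR 0.587), Nkg7 3.24 ± 1.36 and 2.32 ± 1.10 (log2FC -0.46, FDR 0.561) and Gzmb 0.743 ± 0.551 and 0.606 ± 0.203 (log2FC -0.06, FDR 0.963).

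Library 4 of HFKO was the lowest of its group for 6 of the 10 genes, and its Ptprc (CD45, the common surface phosphatase of leukocytes) was also the lowest, at 5.32 FPKM against 7.33 to 13.4 FPKM in the other 4. Without that library the median log2FC of the 10 genes was -0.33, and Cd3g was at -0.60 (FDR 0.345). Ptprc averaged 10.1 ± 0.961 FPKM in HFWT and 8.59 ± 3.01 in HFKO (log2FC -0.30, FDR 0.416), and its part in the values of these genes was not tested. The estimate of Gzmb turned positive with median of ratios scaling (0.02) and quantile normalization (0.12).

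The difference between the genotype effects on the 2 diets was tested as an interaction. None of the 10 genes passed (0.647% of all tested genes did), and none had an unadjusted p under 0.05. Estimates were negative for 9 genes, from -0.31 (Nkg7) to -0.74 (Cd3d), and 0.09 for Prf1. Their median was -0.43, against -0.03 for all tested genes. The intervals were wide, such as -1.86 to 0.38 for Cd3d and -1.75 to 0.89 for Cd8a, so that a diet effect of the same size in both genotypes was neither shown nor excluded.

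Ratios of 2 genes within a library depend little on scaling between libraries, and they were used to compare co-receptor, receptor and killing genes with each other. Which cells made each gene was not tested, so a ratio of genes is not a ratio of cells. Over 10 ratios and 4 comparisons, none of the 40 two-sided exact permutation tests passed after Benjamini-Hochberg adjustment, where the smallest p that 5 against 5 libraries allow is 0.00794 and the lowest adjusted p was 0.0794. Before adjustment 5 diet tests in WT mice and 7 in mice labelled TSP-1 null had p under 0.05, and no genotype test did.

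The log2 ratio of Cd8a to Cd4 was -1.42, -0.38, -0.05, -1.66 and -2.04 in the NDWT libraries and 0.78, 0.84, 1.03, 0.43 and 0.84 in the HFWT libraries. Cd4 exceeded Cd8a in all 5 control livers and Cd8a exceeded Cd4 in all 5 CDAHFD livers (difference 1.90, exact p 0.00794, adjusted p 0.0794). Cd8a rested on 1 to 20 fragments per NDWT library and 2 to 11 per NDKO library. The control values of its ratios are therefore imprecise and depend on the pseudocount. Among mice labelled TSP-1 null the ratio averaged -1.59 ± 1.04 on control diet and 0.27 ± 0.93 on CDAHFD, where libraries 4 and 5 stayed below 0 (difference 1.86, exact p 0.0317, adjusted p 0.141). The means of the ratio between the CD8 chains were alike: Cd8b1 to Cd8a averaged 0.19 ± 0.84 and 0.20 ± 0.15 in WT mice on control diet and on CDAHFD, and 0.25 ± 1.18 and 0.18 ± 0.45 in mice labelled TSP-1 null. Against the receptor, Cd4 to Cd3e averaged 0.09 ± 0.78 in NDWT and -1.28 ± 0.36 in HFWT (difference -1.37, exact p 0.0317, adjusted p 0.141).

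The granule genes were also set against Cd8a, whose control values rested on few fragments (1 to 20 per NDWT library). Gzmb to Cd8a was 0.36, 0.58, 0.33, 1.71 and 0.48 in NDWT and -1.49, -1.57, -0.24, -0.33 and -1.16 in HFWT, without overlap (difference -1.65, exact p 0.00794, adjusted p 0.0794). In mice labelled TSP-1 null it averaged 1.24 ± 0.81 and -0.30 ± 1.03 with overlapping libraries (difference -1.54, exact p 0.0397, adjusted p 0.144). Prf1 to Cd8a averaged 1.18 ± 1.26 in NDWT and -0.92 ± 0.39 in HFWT (difference -2.10, exact p 0.0238, adjusted p 0.136), and 0.81 ± 0.65 in NDKO and -0.78 ± 0.54 in HFKO (difference -1.59, exact p 0.00794, adjusted p 0.0794). The 2 granzymes were set against each other, with Gzma to Gzmb at -0.09 ± 0.89 in NDWT and 1.13 ± 0.59 in HFWT (difference 1.22, exact p 0.0476, adjusted p 0.159). In NDKO and HFKO it was -0.40 ± 0.37 and 0.72 ± 0.46 (difference 1.12, exact p 0.0159, adjusted p 0.127).

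Other ratios tied these genes to all leukocytes and to NK cells. Cd3e to Ptprc was -2.25 ± 0.99 in NDWT and -2.39 ± 0.38 in HFWT (exact p 0.833), and -1.91 ± 0.40 in NDKO and -2.70 ± 0.44 in HFKO (difference -0.78, exact p 0.0238, adjusted p 0.136). Gzma to Ncr1, an activating receptor of NK cells, was 1.49 ± 0.53 in NDKO and 0.25 ± 0.35 in HFKO (difference -1.25, exact p 0.00794, adjusted p 0.0794). In WT mice it was 1.10 ± 0.56 and 0.82 ± 1.08 (difference -0.27, exact p 0.635, adjusted p 0.876). The ratio rests on 0 to 3 Ncr1 fragments per control library, so its control values are set largely by the pseudocount. Ncr1 averaged 0.071 ± 0.040 FPKM on control diet and 0.863 ± 0.375 on CDAHFD in WT mice, and 0.026 ± 0.027 and 0.897 ± 0.366 in mice labelled TSP-1 null, and no fold is given for it. The ratio of Nkg7 to Cd3e averaged 0.67 on control diet and 0.67 on CDAHFD in WT mice, 0.55 and 0.82 in mice labelled TSP-1 null, and no test of it had p under 0.05.

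**Figure D3:**
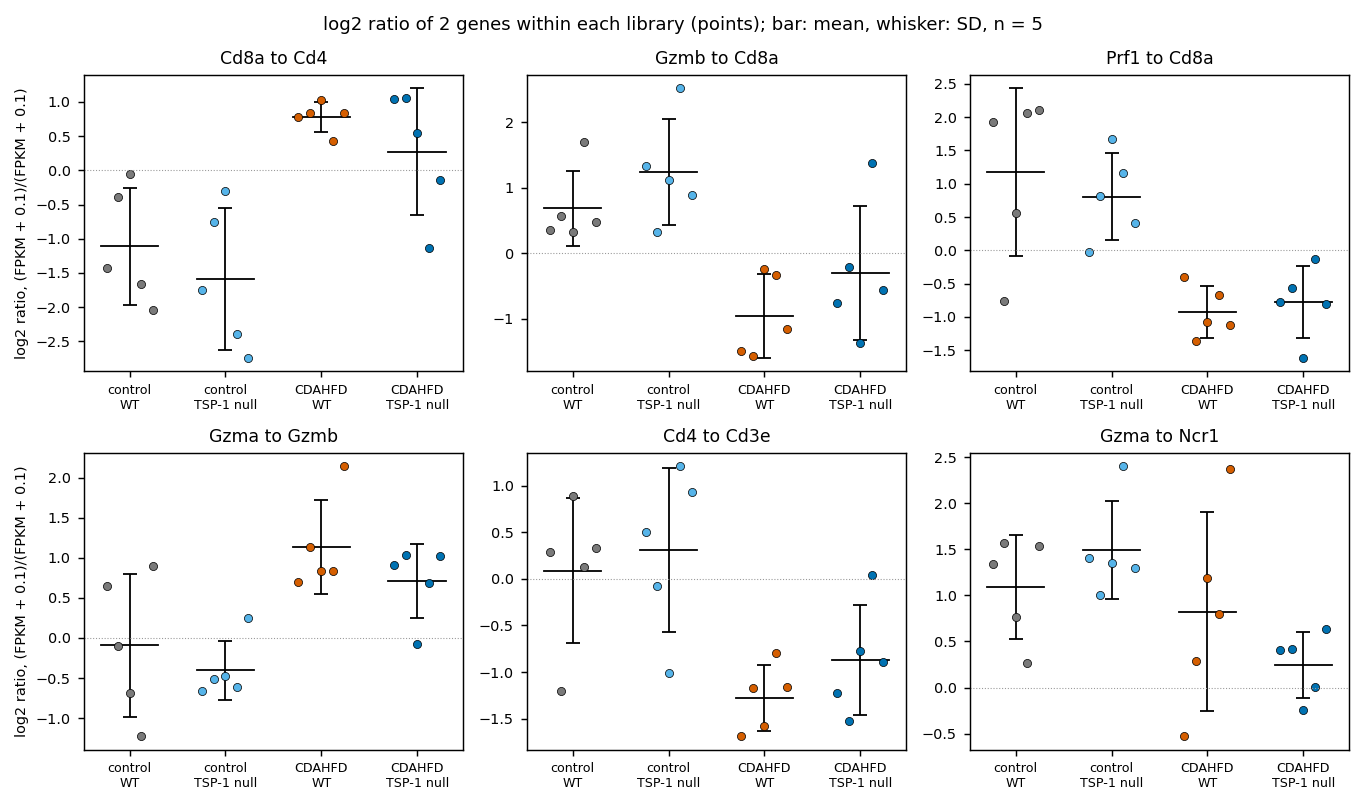
log2 ratio of (FPKM + 0.1) of 2 genes within each library, for 6 of the 10 ratios. Points are libraries in the 4 groups, bars and whiskers the mean and SD of 5 mice, and the dotted line a ratio of 1. Cd8a to Cd4 averages -1.11 in NDWT and 0.78 in HFWT, while Gzmb and Prf1 to Cd8a have lower means on CDAHFD than on control diet.

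How these genes varied between mice of 1 group was described from each library's deviation from its group mean. In NDWT library 2 was the highest for 6 of the 10 genes, and in NDKO library 4 for 5. Within HFWT library 3 was the highest for 8 genes and library 5 the lowest for 8, with summed FPKM over the 10 genes of 23.1 and 10.2. The sums in HFKO ran from 5.54 in library 4 to 14.9 in library 5. Over all 20 libraries the deviation of a gene correlated with the mean of the other 9 at r of 0.25 (Prf1) to 0.73 (Cd3g), a description over points that share library depth and all leukocyte content. The variance between libraries, divided by that expected from counting fragments alone, ran from 0.40 (Cd8b1, at 3 to 6 fragments) to 11.3 (Cd3e) in NDWT and from 1.00 (Gzma) to 14.6 (Cd4) in NDKO. On CDAHFD it ran from 1.61 (Cd8b1) to 10.7 (Gzmb) in HFWT and from 1.68 (Gzmb) to 14.5 (Cd8a) in HFKO.

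**Figure D4:**
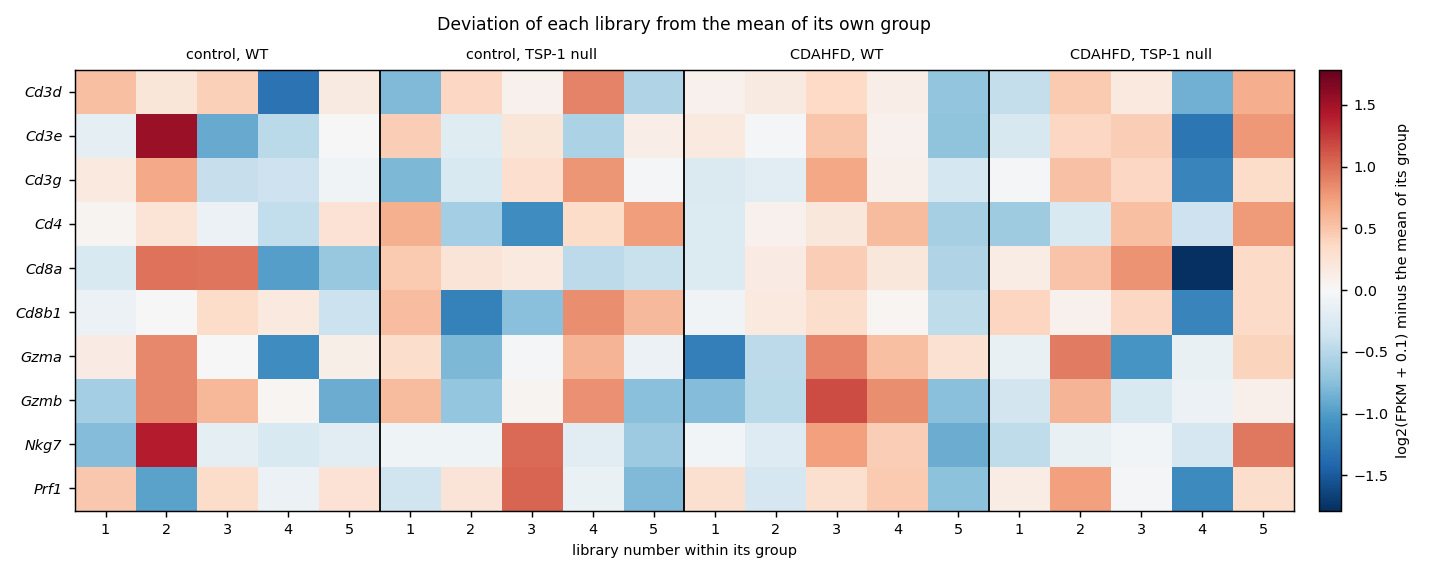
Heat map of log2(FPKM + 0.1) minus the mean of its group for the 10 genes (rows) in the 20 libraries (columns, numbered within each group). Red is above and blue below the group mean. HFKO library 4 is blue for all 10 genes, HFWT library 3 is red for all 10 and the highest of its group for 8, and NDWT library 2 is darkest red for Cd3e and Nkg7.

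Relations between pairs of these genes were tested within each diet, over 8 pairs and both diets, with 10 libraries each. Cd3e and Cd8a on CDAHFD gave Pearson r = 0.914 (permutation p 0.00102, adjusted p 0.0163) and Spearman rho = 0.709 (permutation p 0.0266, adjusted p 0.124). The r was 0.829 within HFWT, 0.913 within HFKO and 0.891 after removing the group means. Without HFKO libraries 4 and 1, the farthest from the median of Cd3e, r was 0.644 (permutation p 0.0798). The size of r over all CDAHFD libraries thus depended in part on them, although HFWT, which holds neither, gave 0.829. On control diet the same pair gave r = 0.379 and rho = 0.382 (adjusted permutation p 0.411 and 0.409). None of the other 15 relations passed.

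The genes outside the 10 whose deviations followed the mean of the 10 most closely over the 20 libraries, out of 14514, were Apbb1ip (r = 0.88), Tyrobp (0.87), Ppp1r18 (0.86), Ccl5 (0.85), Tifab (0.85), Cd6 (0.85), Apobec1 (0.85) and Gngt2 (0.84). Tyrobp is the adaptor of activating receptors on NK and myeloid cells, Ccl5 a chemokine made by T and NK cells, and Cd6 a surface protein of T cells. The others, with Apbb1ip the highest, are in none of the gene lists used here, so the order does not single out lymphocyte genes. These are the highest of many correlations and are given without a test.

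Other genes were taken from 4 lists of T and NK cell genes and 1 list of the MHC molecules that CD4 and CD8 bind, with the genes that serve them. The 5 lists hold 109 genes in all, of which 61 passed the filter, 14 of them from the MHC list, whose genes are made by antigen-presenting and other cells. In WT mice 51 were called higher on CDAHFD and 0 lower, and in mice labelled TSP-1 null 54 higher and 1 lower. The shares of all tested genes called higher were 44.1% and 41.9%. Some of the list genes passed the filter only with their CDAHFD libraries, which favours a higher call. List genes under the filter are outside these counts.

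Of the T cell receptor signalling and T cell surface list, 16 of 28 genes were tested. In WT mice 15 were higher and 1 was not called, and in mice labelled TSP-1 null 15 were higher and 1 lower, with median log2FC of 1.79 and 1.61. Il7r, the receptor for the survival cytokine interleukin-7, went from 0.166 ± 0.091 to 5.03 ± 0.868 FPKM in WT mice (log2FC 4.32, FDR 8.35e-12) and from 0.156 ± 0.063 to 3.81 ± 0.991 FPKM in mice labelled TSP-1 null (log2FC 3.93). Tcf7, a transcription factor of naive and memory T cells, went from 1.34 ± 0.249 to 6.40 ± 1.51 FPKM (log2FC 2.15) and from 1.45 ± 0.323 to 7.22 ± 0.807 FPKM (log2FC 2.26). Themis, needed for thymocyte selection, rose by 2.19 and 2.36, Thy1 by 2.02 in WT mice and Lat, the adaptor below the receptor, by 1.85 in mice labelled TSP-1 null, all as log2FC. Zap70, the kinase that binds CD3 chains, went the other way. It averaged 4.69 ± 0.370 FPKM in NDWT and 3.76 ± 0.395 in HFWT (log2FC -0.31, FDR 0.0533), and 6.82 ± 1.97 in NDKO and 4.16 ± 0.540 in HFKO, where it fell (log2FC -0.66, FDR 0.000321). The CD3 chains averaged only 0.294 (Cd3d) to 0.622 FPKM (Cd3g) in NDWT, and which cells made Zap70 was not tested.

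For the other granzymes and the cytotoxic granule, 10 of 20 genes were tested and 9 were higher in each diet comparison, with medians of 1.86 and 1.73. Ccl5 went from 1.07 ± 0.496 to 8.86 ± 4.20 FPKM in WT mice (log2FC 2.91) and from 0.841 ± 0.246 to 4.86 ± 1.28 in mice labelled TSP-1 null (log2FC 2.39). Ctsw, a protease of cytotoxic lymphocytes, rose by 2.27 and 2.01 on the log2 scale, and Unc13d, which primes granules for release, by 2.16 in WT mice. Stx11, a granule fusion protein, rose by 1.93 in mice labelled TSP-1 null. Ctsc, the protease that activates granzymes, was the gene of this list that was called in neither comparison (log2FC -0.15 and 0.01). None of the 8 further granzymes listed reached the filter. Of these, Gzmd, Gzme, Gzmf, Gzmg and Gzmn were at 0 in all 20 libraries, and Gzmk averaged 0.016 FPKM in NDWT and 0.479 in HFWT.

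The NK cell receptors and regulators had 8 of 20 genes tested, all 8 higher in both diet comparisons, with medians of 2.55 and 2.45. Of these, Ncr1, Cd244, Klrd1, Klrk1 and Sh2d1b1 exceeded 0.5 FPKM in no control library and passed the filter only with their CDAHFD libraries. A lower call was hardly possible for them. Klrd1 (CD94) went from 0.270 ± 0.088 to 2.30 ± 0.322 FPKM in WT mice (log2FC 2.72) and from 0.133 ± 0.063 to 1.71 ± 0.356 in mice labelled TSP-1 null (log2FC 2.98). Tyrobp went from 30.3 ± 4.26 to 200.3 ± 48.1 FPKM (log2FC 2.69) and from 28.1 ± 4.46 to 169.7 ± 45.0 FPKM (log2FC 2.56), a level that includes myeloid cells, which also make it. Sh2d1b1, an adaptor of NK cells, stood at 0.052 ± 0.037 FPKM in NDWT and 1.56 ± 0.249 in HFWT, with 0 to 3 fragments per NDWT library. Cd244 (2B4), a receptor of NK cells, stood at 0.034 ± 0.016 and 0.839 ± 0.128 FPKM in the same groups.

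Of the helper, regulatory and exhaustion genes, 13 of 27 were tested. In WT mice 9 were higher and 4 not called, among them Bcl6, Lag3 and Tox, and in mice labelled TSP-1 null 11 were higher and 2 not called, among them Bcl6. The medians were 1.42 and 1.5. Havcr2 (TIM-3), an inhibitory receptor also found on myeloid cells, went from 0.135 ± 0.042 to 2.81 ± 0.382 FPKM in WT mice (log2FC 3.64) and from 0.222 ± 0.096 to 2.20 ± 0.589 in mice labelled TSP-1 null (log2FC 2.84). Ccr7, a homing receptor of naive and central memory T cells and of dendritic cells, rose by 2.92 and 2.77. Cxcr3, a receptor of effector T cells, rose by 2.19 in WT mice. Tigit, an inhibitory receptor, was at 0.063 ± 0.065 FPKM in NDWT and 0.917 ± 0.527 in HFWT, and at 0.058 ± 0.061 in NDKO and 0.510 ± 0.336 in HFKO, with 0 to 3 fragments per control library.

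The MHC partners of CD4 and CD8 were all tested. Of 14 genes, 10 were higher in WT mice and 11 in mice labelled TSP-1 null, with medians of 1.36 and 1.58. The class II chains that CD4 binds rose: H2-Eb1 from 47.9 ± 20.5 to 189.3 ± 38.8 FPKM (log2FC 2.08) in WT mice and from 24.4 ± 4.42 to 144.9 ± 42.5 FPKM (log2FC 2.54) in mice labelled TSP-1 null, and H2-Aa by 2.06 and 2.33. Cd74, the invariant chain, rose by 1.88 in WT mice and H2-Ab1 by 2.29 in mice labelled TSP-1 null. On the class I side that CD8 binds, the heavy chain H2-D1 rose from 312 ± 48.2 to 640.0 ± 86.5 FPKM (log2FC 1.04) in WT mice and from 276 ± 36.1 to 559 ± 99.6 FPKM (log2FC 1.01) in mice labelled TSP-1 null. The heavy chain H2-K1 (log2FC 0.28 and 0.26) and the light chain B2m (0.44 and 0.39) were under the fold threshold. Cd1d1, which presents lipids to NKT cells, was lower without overlap in both comparisons (-0.46 and -0.52), also under that threshold.

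**Figure D5:**
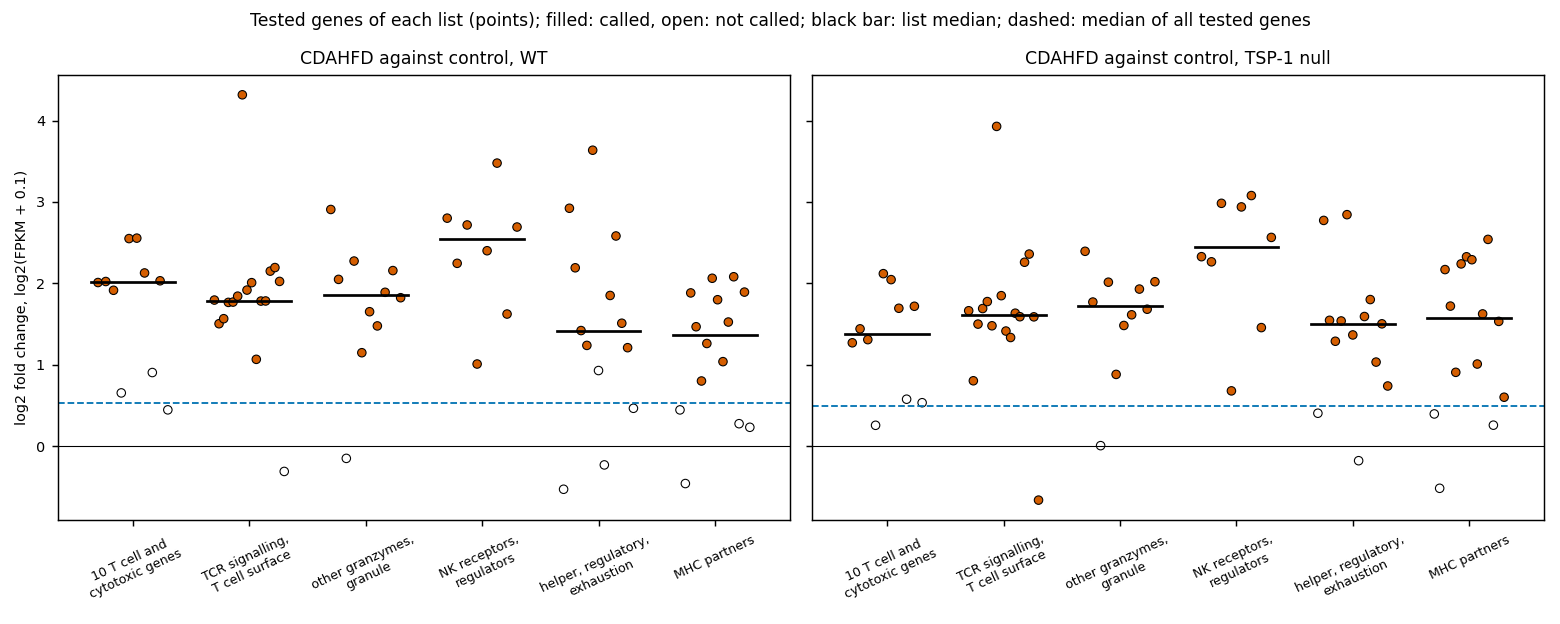
log2 fold change between diets of each tested gene of the 10 T cell and cytotoxic genes and of the 5 related lists, in WT mice (left) and mice labelled TSP-1 null (right). Filled points are DEGs, open points are not, black bars are list medians and the dashed line is the median of all tested genes. The medians of the NK list, 2.55 and 2.45, are the highest bars, and Il7r is the highest single point in each panel. Il7r and, of the NK list, Ncr1, Cd244, Klrd1, Klrk1 and Sh2d1b1 passed the filter only with their CDAHFD libraries. That favours high points, so the order of the lists is a description only.

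Between genotypes on control diet, 5 of the 61 tested genes of these lists were lower in the libraries labelled TSP-1 null and 0 higher, and 3.03% of all tested genes were called lower. They were Ciita, the master regulator of class II (1.35 ± 0.386 FPKM in NDWT, 0.468 ± 0.048 in NDKO, log2FC -1.31, FDR 0.00072), Themis (log2FC -1.14, FDR 0.0136), H2-Eb1 (-0.86, FDR 0.0415), Tap1, the class I peptide transporter (-0.74, FDR 0.00864), and Klrd1 (-0.69, FDR 0.0387). With median of ratios scaling or with the replicate number as a block 3 of the 61 were called. On CDAHFD 0 of the 61 were called by limma (1 with the replicate block), and the list medians were -0.42 for receptor signalling, -0.35 for the granule, -0.38 for NK genes, -0.21 for helper genes and -0.30 for MHC partners, against -0.10 for all tested genes.

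Markers of other cells in the liver moved with diet as well, and their part in the values above was not tested. All 5 pan-leukocyte genes were higher in both diet comparisons, and their summed level ran from 13.8 to 22.7 FPKM over the control livers, from 95.3 to 137 in HFWT and from 71.5 to 148 in HFKO. Of the B cell list 8 of 9 tested genes were higher in both, with sums of 2.16 to 8.19 FPKM on control diet and 9.67 to 20.1 on CDAHFD. The dendritic cell list had 7 of 8 tested genes higher in both (2.41 to 3.63 FPKM on control diet, 19.8 to 39.6 on CDAHFD). All 5 tested neutrophil genes were higher in both (1.99 to 6.36 against 17.7 to 43.0 FPKM), although the defining marker Ly6g was at 0 in all NDWT and HFWT libraries.

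Macrophage and Kupffer cell genes split, with 6 of 12 higher and 3 lower in both diet comparisons (sums 212 to 350.0 against 692 to 1468 FPKM). Stellate cell genes were higher in both for 9 of 9 (22.7 to 29.9 against 114 to 222 FPKM), and cholangiocyte genes for 6 of 6 tested (18.3 to 24.4 against 192 to 500.4 FPKM). Endothelial genes were higher for 2 of 8 tested in WT mice and 3 of 8 in mice labelled TSP-1 null (49.1 to 64.6 against 53.8 to 89.0 FPKM). Plasma cell genes were higher for 1 of 4 tested in WT mice and for 2 of 4, with 1 lower, in mice labelled TSP-1 null (69.8 to 126 against 55.9 to 69.5 FPKM). Jchain, Mzb1 and Derl3 averaged 0.487, 0.518 and 7.46 FPKM in NDWT and 1.03, 0.554 and 2.77 in HFWT. These genes were a small part of the plasma cell sums, and which cells made the rest was not tested. Of the mast cell and basophil list 1 of 7 genes was tested, and it was higher in mice labelled TSP-1 null alone. Its sums were 0.93 to 1.67 FPKM on control diet and 1.48 to 3.35 on CDAHFD, with Mcpt4 at 0 in every NDWT, NDKO and HFWT library and Mcpt8 in every NDWT, NDKO and HFKO library. Hepatocyte genes were higher for none of 8 tested, lower for 1 in WT mice and 2 in mice labelled TSP-1 null, and summed to 33514 to 55412 FPKM over all libraries.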

How the data were processed

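Poly(A) RNA from 20 livers was sequenced as paired reads, 1 library per mouse. Per the labels, reads were aligned with STAR 2.5.2 and counted with featureCounts of Subread 1.5.1, and the strand setting and annotation release are not given in the sources used here. The authors deposited FPKM values per gene, normalized to gene length and assigned fragments. The labels name the build GRCh38, but the table lists mouse genes at GRCm38 positions: 37607 of 38924 identifiers were found in GENCODE M21, and 99.8% of those overlapped it. All 20 sample columns were used, and 0 other columns of sample values were left out. The authors' own comparisons were not used. Fragments were recovered from FPKM, length and library total, and at least 99.95% of the values checked per library were whole. No 2 libraries of a group agreed within sampling noise (lowest chi-square per degree of freedom 13.0 over 40 pairs). Labels do not say more about the mice than their group, so p-values measure the spread between these 5 animals.

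A gene entered the test if 5 or more libraries exceeded 0.5 FPKM. Testing used limma 3.58.1 (R 4.3.3; trended empirical Bayes) on log2(FPKM + 0.1), with all 20 libraries in 1 fit. Fold changes on this scale understate changes of low genes. Exact permutation, two-sided, was used for ratios (252 arrangements), and relations were tested with 100000 permutations (scipy 1.17.1). Alternatives were pseudocounts of 0.01 and 1, other filters, median of ratios scaling, quantile normalization, the compared groups alone, no variance trend, voom on recovered fragments, a replicate block, FDR alone and each library left out. All 10 members are named. Of the related lists, up to 4 called genes per comparison with the largest change and separate groups are named, with the defining marker genes and the 8 genes most like the members. Other named genes (uncalled list genes, H2-D1, Zap70, Gzmk and the granzymes at 0, and the called genes of the genotype comparison) were chosen after their values were seen. Members and lists were chosen with earlier results of these data known. Promoter windows came from RefSeq (GRCm38.p6). Some list genes are not reported here.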

Additional observations from a re-analysis of the deposited data

Results flagged for a closer look

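Within groups of 5 libraries, 8 of 80 values tested (40 gene levels and 40 ratios) held a library whose gap to its nearest neighbour exceeded 0.71 of the range, where chance gives about 1 in 20. Cd3e was at 1.294 FPKM in NDWT library 2 (next 0.384) and Nkg7 at 1.911 FPKM in the same library (next 0.576). Nkg7 also stood apart at 1.279 FPKM in NDKO library 3 (next 0.552) and at 4.243 FPKM in HFKO library 5 (next 2.089), the HFKO library with the highest Ptprc (13.4 FPKM). Of the log2 ratios, Cd8a to Cd3e was 0.84 in NDWT library 3 (next -1.13), Gzmb to Cd8a 1.71 in NDWT library 4 (next 0.58), Gzma to Gzmb 0.25 in NDKO library 5 (next -0.47) and Gzma to Ncr1 2.40 in NDKO library 4 (next 1.4). These ratios are of control livers, where single genes rest on few fragments.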

How the results depend on the processing

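Of the 10 genes, 7 were DEGs in WT mice under most alternatives, with 6 to 8 over all of them, and 7 in mice labelled TSP-1 null, with 6 to 8 except under quantile normalization, where 2 were called. Leaving out 1 library gave 7 to 8 in both. The genotype and interaction comparisons gave 0 calls of these genes under every alternative run. No ratio test passed under either pseudocount or without any 1 library. Replicate numbers did not pair the samples (correlation of same-numbered libraries -0.133 to 0.0807, 0 pairs above 0.1, and 1 to 4 of the 10 libraries of a comparison correlated best with their own number). The replicate block gave 7, 7, 0, 0 and 0 members in the 5 comparisons. Of the related genes it called 3 rather than 5 between genotypes on control diet and 1 rather than 0 on CDAHFD, and median of ratios scaling called 3 on control diet. The causes were not tested.

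Estimates that changed sign, none of them called in the report's fit and 1 called under an alternative (Cd4 with quantile normalization in mice labelled TSP-1 null), follow as log2 values, where diet and genotype name the comparison. With quantile normalization these were Cd4 -0.56, Gzmb -0.45 and Prf1 -0.80 (WT diet), Cd4 -0.91, Gzmb -0.61 and Prf1 -0.73 (TSP-1 null diet), Gzma 0.0139 (control diet genotype), Gzmb 0.12 (CDAHFD genotype). With median of ratios scaling these were Prf1 -0.00613 (WT diet), Cd4 -0.18 (TSP-1 null diet), Cd3e 0.0389 and Gzma 0.0255 (control diet genotype), Gzmb 0.0206 (CDAHFD genotype). With pseudocount 1 these were Cd3d -0.00124 (control diet genotype), Prf1 -0.00954 (interaction), Cd8a to Cd3e -0.0250 and Gzma to Ncr1 0.21 (WT diet), Cd8a to Cd3e 0.0250 (CDAHFD genotype). With voom these were Cd3d -0.016 and Cd3e 0.0351 (control diet genotype). With pseudocount 0.01 these were Cd3e 0.0133 and Cd8b1 to Cd8a -0.55 (control diet genotype), Cd8b1 0.0296 (interaction), Cd3e to Ptprc 0.10, Cd8b1 to Cd8a -0.36 and Nkg7 to Cd3e -0.12 (WT diet), Cd8b1 to Cd8a 0.22 (TSP-1 null diet), Cd8b1 to Cd8a 0.0285 (CDAHFD genotype). Leaving out 1 library gave these ranges: Cd4 -0.0206 to 0.44 and Cd8b1 to Cd8a -0.43 to 0.25 (TSP-1 null diet), Cd3d -0.32 to 0.20, Cd3e -0.25 to 0.36, Cd8b1 -0.43 to 0.0774, Gzma -0.31 to 0.18, Nkg7 -0.40 to 0.20, Cd4 to Cd3e -0.10 to 0.55, Cd8a to Cd3e -0.43 to 0.21, Cd8b1 to Cd8a -0.27 to 0.41 and Nkg7 to Cd3e -0.32 to 0.0736 (control diet genotype), Gzmb -0.25 to 0.24, Cd8a to Cd3e -0.21 to 0.0199975, Cd8b1 to Cd8a -0.17 to 0.0876, Nkg7 to Cd3e -0.10 to 0.28 and Prf1 to Cd8a -0.0156 to 0.35 (CDAHFD genotype), Cd8a -0.67 to 0.0153 and Prf1 -0.11 to 0.37 (interaction), Cd3e to Ptprc -0.46 to 0.24, Cd8b1 to Cd8a -0.24 to 0.30, Nkg7 to Cd3e -0.15 to 0.19 and Gzma to Ncr1 -0.66 to 0.0647 (WT diet).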
